A study of Homo sapiens with 9 samples.

Results

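The genes described here encode the proteins of the cytosolic ribosome and their paralogs. They were chosen by name among the protein-coding genes of the deposited table, as all names that start with RPL or RPS and a digit, with RPLP0 to RPLP2 and RPSA, leaving out the RPS6 kinases and hyphenated readthrough genes. The rule gave 88 of the 58735 genes. Of these, 77 were core ribosomal proteins, 46 of the large subunit and 31 of the small subunit, and 10 were paralogs of a core protein. The remaining gene, RPS19BP1, matched by name only, since it encodes a nucleolar regulator of SIRT1 that binds RPS19. The RNA came from MIA PaCa-2, a human cell line derived from a pancreatic tumor. The treatments lasted 24-h and were the ERK inhibitor SCH772984 (1 μM), compound 1, an inhibitor of TBK1 and IKKε (1 μM), and the vehicle DMSO (0.1%), with 3 libraries of each. All conditions shared the same parental line, without a transgene or knockout. The labels do not say whether the libraries of a condition came from separate cultures, so p-values measure only the spread between these samples.

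The cytosolic ribosome translates nuclear-encoded mRNAs, and nearly all of its proteins are present at a single copy per particle, each encoded by a gene of its own. The mRNAs of ribosomal proteins typically begin with a C followed by a run of pyrimidines, the terminal oligopyrimidine (TOP) tract, through which mTOR and LARP1 control their translation. RSK, a kinase downstream of ERK, and the S6 kinases phosphorylate the ribosomal protein RPS6. A few core proteins have paralogs, such as RPL22L1, RPL39L and RPS27L, whose products can take the place of the parent protein in the ribosome or act outside it.

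Whole-series facts that bear on these genes were as follows. The libraries held 9464432 to 13887859 counts, of which core ribosomal protein genes took 5.37% to 5.49% with DMSO, 5.47% to 6.29% with compound 1 and 5.10% to 5.51% with SCH772984. The line's markers KRT8, KRT18 and VIM had counts in all 9 libraries and CDKN2A, lost in this line, had none, while EPCAM was at 0 and KRT7 reached at most 0.486 CPM (counts scaled to the library total). KRT8 had 2331 to 2422 CPM with DMSO and 776 to 878 CPM with SCH772984. None of the 4 acinar and 2 islet markers had a count, leukocyte markers summed to at most 0.1 CPM and endothelial markers to at most 0.29 CPM. Fibroblast markers (COL1A1, COL3A1 and DCN) summed to 6.44 to 7.78 CPM with DMSO, 4.87 to 6.98 CPM with compound 1 and 46.66 to 56.42 CPM with SCH772984, almost all of it COL3A1, and DCN reached at most 0.089 CPM. The share of mitochondrially encoded counts was 3.33% to 3.98% with DMSO, 3.41% to 3.92% with compound 1 and 6.23% to 7.52% with SCH772984. The part of these differences in the results with SCH772984 was not tested. Compound 1 replicate 1 and SCH772984 replicate 3 stood apart from the other libraries of their groups, and named results that change call without them are given both ways. Gene positions were those of GENCODE release 29 (GRCh38), which the table matched for 88 of 88 genes.

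To show how core genes and paralogs differ at their starts, 30-base windows around the annotated transcription start were read from RefSeq (GRCh38.p14), with 15 bases on each side of it. A start was counted as holding a TOP-like tract when it began with C and continued with at least 4 further C or T on the gene's own strand. Of the 77 core genes, 62 had a promoter entry, and 46 of these (74.2%) held such a tract at a listed start, compared with 947 of 14896 protein-coding genes (6.36%). Of 8 paralogs with an entry, 2 (25%) did, of which RPL22L1 was the only 1 with counts. In the sequences, written 5′ to 3′, capitals mark the run of C and T that begins with C at the start. The core genes shown are 10 with a tract, which include the parents of RPL22L1, RPL26L1, RPL36AL and RPS27L, and 2 without one, RPL17 and RPL3. The 5 paralogs are those that could be tested.
RPS14 (chr5:150449725-150449754, minus strand): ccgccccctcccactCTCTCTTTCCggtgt
RPL35 (chr9:124861943-124861972, minus strand): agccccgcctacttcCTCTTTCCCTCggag
RPS12 (chr6:132814554-132814583, plus strand): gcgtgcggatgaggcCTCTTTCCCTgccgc
RPL22 (chr1:6199581-6199610, minus strand): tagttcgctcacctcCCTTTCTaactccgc
RPS27 (chr1:153990747-153990776, plus strand): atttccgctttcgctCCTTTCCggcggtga
RPLP1 (chr15:69452803-69452832, plus strand): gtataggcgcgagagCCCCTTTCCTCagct
RPL35A (chr3:197950175-197950204, plus strand): cggcggggcctcgtcCTTCTCTTaccgcca
RPS6 (chr9:19380222-19380251, minus strand): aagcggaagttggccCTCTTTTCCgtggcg
RPL26 (chr17:8383179-8383208, minus strand): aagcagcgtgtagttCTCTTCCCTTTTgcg
RPL36A (chrX:101390996-101391025, plus strand): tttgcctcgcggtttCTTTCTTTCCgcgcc
RPL17 (chr18:49492451-49492480, minus strand): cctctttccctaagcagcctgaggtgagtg
RPL3 (chr22:39319609-39319638, minus strand): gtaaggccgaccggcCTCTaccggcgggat
RPL22L1 (chr3:170870181-170870210, minus strand): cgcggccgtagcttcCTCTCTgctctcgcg
RPL36AL (chr14:49620612-49620641, minus strand): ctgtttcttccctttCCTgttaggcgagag
RPL26L1 (chr5:172958714-172958743, plus strand): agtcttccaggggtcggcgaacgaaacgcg
RPS27L (chr15:63157463-63157492, minus strand): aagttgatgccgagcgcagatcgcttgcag
RPL7L1 (chr6:42879601-42879630, plus strand): cggaagtgcggcgccgtagctaggagcgga

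These windows show an unbroken tract of at least 7 pyrimidines in each of the first 10 core genes printed, which were chosen for their tract, a run of 4 in RPL3 and none in RPL17. RPL22L1 had a shorter tract of 6, RPL36AL a run of 3, and RPL26L1, RPS27L and RPL7L1 none at the start shown. The second listed start of RPL26L1, which is not shown, had none either. A match describes these letters only.

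In DMSO, the levels of the core genes spanned a wide range. From here on, CPM values use library totals adjusted by TMM, which takes a scale factor from the bulk of genes. Per kb of annotated gene length, the highest was RPL8, which lies near the peptidyl transferase center, at 982 ± 17.6 CPM per kb (SD, n = 3), then RPS2 at 939 ± 23.9 and RPL13A at 880.2 ± 22.7. RPL8 and RPS2 overlapped, with 988, 996 and 963 CPM per kb in the DMSO libraries against 965, 919 and 932, whereas RPL13A stayed below both at 899.8, 855 and 886. Among the lowest were RPL36A at 2.45 ± 0.429 and RPS10 at 2.48 ± 0.455 CPM per kb, which did not differ beyond their spread. The deposited gene length was larger than the coding length in all 77 core genes. Per kb of coding sequence, RPL41, which encodes the smallest ribosomal protein, was highest at 8466 ± 250.5 CPM per kb and RPL13A followed at 3424 ± 88.4, while RPS10 and RPL36A were again lowest.

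Reads from some core genes can also align to near-identical copies elsewhere in the genome. The table holds 1144 pseudogenes named after members, 371 of them with a count. Pseudogenes held 63.8% of the counts on RPL9 and its pseudogenes together, 31.0% for RPS10, 27.0% for RPS28, 20.5% for RPS2, 18.5% for RPL26, 17.0% for RPL7 and 15.2% for RPS7. RPL17, RPS10 and RPL36A overlap a readthrough gene on the same strand, and 42 core genes overlap some gene other than a small RNA. How multi-mapped reads and strand were handled is not given in the sources used here, so the levels of these genes are uncertain. Among the paralogs, RPL7L1, RPL22L1, RPL26L1, RPL36AL and RPS27L had enough counts to be tested. RPL39L and RPL10L, both best known from testis, had a count of 0 in all 9 libraries, which allows up to 3 counts per library, or 0.216 to 0.317 CPM of the unadjusted totals. RPL3L, a paralog of RPL3 known from skeletal and heart muscle, had 0, 0 and 1 counts with DMSO, 3, 8 and 7 with compound 1 and 4, 5 and 2 with SCH772984, and was not tested. Its parent RPL3 had 1451, 1413 and 1368 CPM with DMSO and 1491, 1342 and 1356 CPM with SCH772984, which did not pass edgeR's test, at a log2 fold change of -0.02 ± 0.06 (SE), and which was called at 0.15 with library size alone (adjusted p = 0.0139) and at -0.17 when length and GC trends were removed (0.00866). The Y-linked paralogs RPS4Y1 and RPS4Y2 are not described here.

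To examine how ERK inhibition changed these genes, the 3 SCH772984 libraries were compared with the 3 DMSO libraries by edgeR's quasi-likelihood test, with a gene called at a Benjamini-Hochberg adjusted p under 0.05 over all genes tested. All 77 core genes were tested. With SCH772984, 48 core genes fell, 3 rose and 26 were not called, and the median log2 fold change was -0.23. The falls were small, with the middle of the distribution between -0.36 and -0.10 (quartiles) and 3 core genes passing a change of 1.5-fold, RPS14 and RPL17 among them. Over all 13834 genes tested, 35.5% were lower and 37.2% higher, with a median of 0.03. By subunit, 32 of 46 large-subunit genes fell and 2 rose (median -0.25), and 16 of 31 small-subunit genes fell and 1 rose (median -0.18). Without SCH772984 replicate 3, 57 core genes were lower and 2 higher, beside 35.1% and 35.4% of all genes, and the median was -0.27. In bulk RNA, less ribosomal protein mRNA in each cell and fewer cells of a kind that holds more of it cannot be told apart.

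How many core genes fell depended on the scaling. With library size alone in place of TMM factors, 23 core genes were lower and 11 higher, with a median of -0.05, while the median of all genes moved from 0.03 to 0.20. When a trend with gene length was removed, 65 were lower and 0 higher, with a median of -0.36 against -0.11 for all genes. Relative to the median of all genes, the core median was -0.25 with TMM factors, -0.25 with library size alone, -0.24 without the length trend and -0.20 without length and GC trends.

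**Figure D1:**
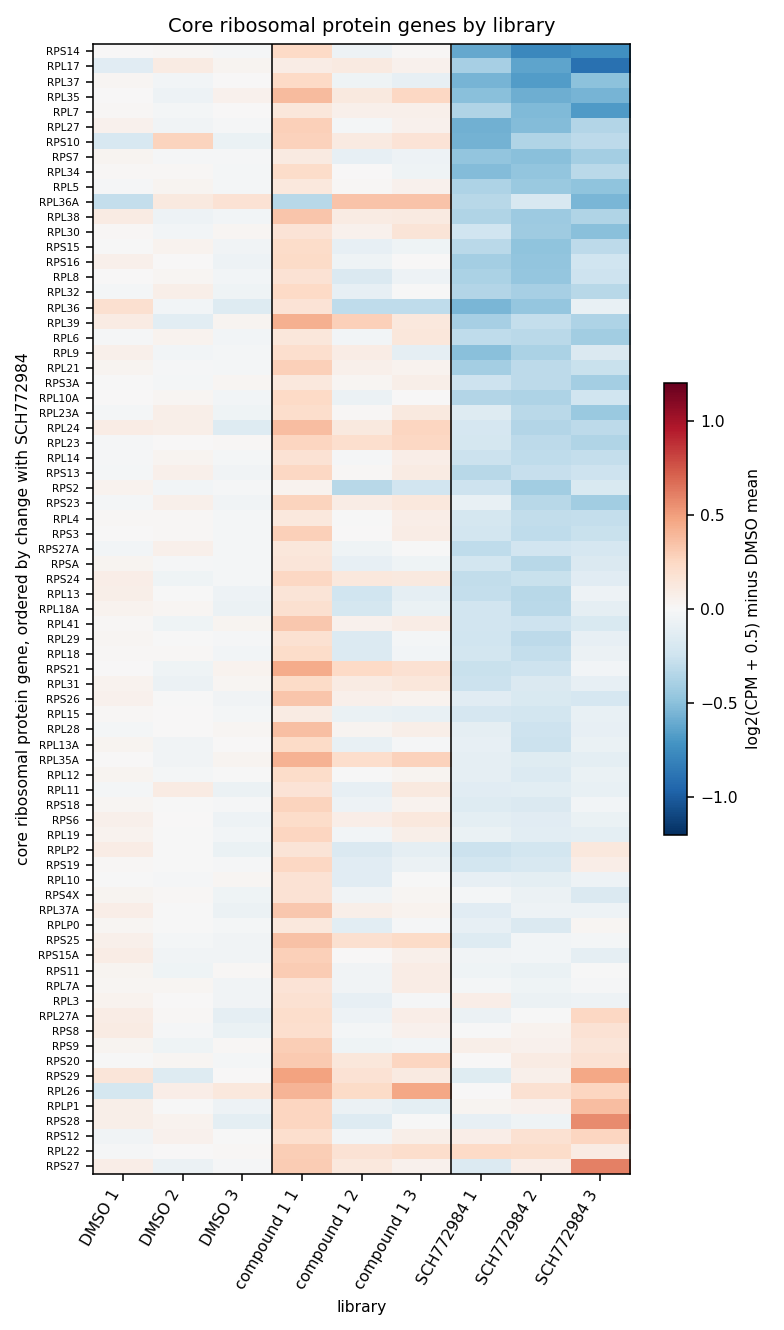
Heat map of 75 of the 77 core ribosomal protein genes (rows, ordered by log2 fold change with SCH772984) in the 9 libraries (columns), where color is log2(CPM + 0.5) minus the mean of the 3 DMSO libraries. Most rows are below DMSO in all 3 SCH772984 columns, compound 1 replicate 1 is above DMSO in most rows (median 0.23), and RPS27, RPS28 and RPS29 are high in SCH772984 replicate 3 only among the SCH772984 libraries.

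Among the core genes with the largest falls were RPS14, RPL17, RPL37 and RPL35. RPS14, which lines the mRNA exit channel of the small subunit, had 1341, 1350.5 and 1329 CPM with DMSO against 878, 783 and 804 CPM. It fell by 0.71 ± 0.06 (SE) on the log2 scale (adjusted p = 1.29e-14), with no overlap between the groups.

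RPL17 had 30.8, 36.3 and 34.6 CPM with DMSO and 25.6, 21.6 and 17.96 CPM with SCH772984 and fell by 0.65 ± 0.11 (SE) on the log2 scale (adjusted p = 1.82e-06). RPL37, a zinc-binding protein of the large subunit, had 703, 672 and 693 CPM against 469, 434 and 490.0 CPM and fell by 0.58 ± 0.06 (SE) on the log2 scale (adjusted p = 1.08e-11). RPL35, which sits beside the exit tunnel, had 1053, 1011 and 1092 CPM against 743, 702 and 713 CPM and fell by 0.55 ± 0.06 (SE) on the log2 scale (adjusted p = 1.61e-11). In all 3 genes the groups did not overlap, and these falls and that of RPS14 kept their direction and call under all 17 alternatives tried. None of these alternatives dealt with the readthrough gene that RPL17 overlaps on the same strand.

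Core proteins were also grouped by their place in the ribosome or their link to disease, which was done after their values had been seen, so the groups and the genes named in them are descriptions. Around the rim of the peptide exit tunnel, 5 of 8 genes fell (RPL17, RPL23A, RPL31, RPL35 and RPL39) and 1, RPL22, rose, beside 48 of 77 for the core as a whole and 35.5% lower and 37.2% higher over all genes. RPL39 had 465, 397 and 443 CPM with DMSO and 329, 357 and 336 CPM with SCH772984 and fell by 0.36 ± 0.06 (SE) on the log2 scale (adjusted p = 1.98e-06). RPL23A, where nascent-chain factors dock, had 288, 308 and 282 CPM against 263, 234 and 215 CPM and fell by 0.31 ± 0.07 (SE) on the log2 scale (adjusted p = 6.00e-05). RPL19 and RPL26 were not called, with log2 fold changes of -0.11 ± 0.06 and 0.14 ± 0.09 (SE). RPL19 was at 0.06 with library size alone but was called lower in 6 alternatives, such as DESeq2 (adjusted p = 0.0297), without DMSO replicate 3 (0.0482) and without SCH772984 replicate 1 (0.0345). RPL26 was called higher with library size alone, at 0.32 (adjusted p = 0.00162). The same held with at least 10 counts in every library, at 0.22 (0.0227), and with protein-coding genes only, at 0.19 (0.0433). Along the mRNA channel of the small subunit, RPS2 and RPS3 at the entry both fell, by 0.29 ± 0.06 (SE) and 0.27 ± 0.06 on the log2 scale. At the exit, RPS3A, RPS14 and RPS26 fell, and RPS28 did not pass (adjusted p = 0.545). With library size alone, RPL23A, RPL31, RPS2, RPS3 and RPS26 did not pass, and RPL31 and RPS26 were both at -0.01 (adjusted p = 0.924 and 0.933).

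The ribosomal stalk, whose proteins RPLP0, RPLP1 and RPLP2 recruit elongation factors, had 0 of 3 genes called lower and 1, RPLP1, called higher, beside 35.5% and 37.2% of all genes. RPLP0 had 1740.0, 1710.5 and 1684 CPM with DMSO and 1595, 1519 and 1742 CPM with SCH772984, a log2 fold change of -0.09 ± 0.06 (SE, adjusted p = 0.193). RPLP2 had 342, 320.0 and 305 CPM against 269.9, 277 and 351 CPM, a log2 fold change of -0.11 ± 0.08 (SE, adjusted p = 0.213). Both ranges overlapped, and without SCH772984 replicate 3 both passed as lower, at -0.15 (adjusted p = 0.0144) and -0.25 (adjusted p = 9.63e-05). Both were also called lower with the length trend removed, RPLP0 at -0.16 (adjusted p = 0.0151) and RPLP2 at -0.26 (adjusted p = 4.78e-04), and RPLP2 with length and GC trends removed, at -0.41 (adjusted p = 3.92e-09). With library size alone they were at 0.09 and 0.06, uncalled.

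RPL5 and RPL11 bind the small ribosomal RNA of the large subunit and, when free of ribosomes, MDM2, through which they stabilize p53. RPL5 had 1251, 1291 and 1238 CPM with DMSO and 973, 924 and 899 CPM with SCH772984 and fell by 0.44 ± 0.06 (SE) on the log2 scale (adjusted p = 5.63e-09). RPL11 had 367, 399.9 and 356 CPM against 341, 344 and 351 CPM, a log2 fold change of -0.12 ± 0.06 (SE, adjusted p = 0.065), and was at 0.05 with library size alone. Its groups did not overlap, and it was called lower without DMSO replicate 3 (adjusted p = 0.0242), without SCH772984 replicate 3 (0.026), without a filter (0.0333), and with the trend of length (8.82e-04) or of length and GC (0.0426) removed. Of 16 core genes mutated in Diamond-Blackfan anemia, an inherited failure of red cell formation, 9 fell and 0 rose (median -0.18), or 56.2%, beside 62.3% of the core and 35.5% of all genes.

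RPS6, the phosphorylation target of the S6 kinases and RSK, had 779.8, 749.8 and 719.7 CPM with DMSO and 692, 684 and 709 CPM with SCH772984. The groups did not overlap, but a log2 fold change of -0.11 ± 0.06 (SE, adjusted p = 0.0733) did not pass, and it was 0.06 with library size alone. It was called lower without DMSO replicate 3 (adjusted p = 0.033), without SCH772984 replicate 3 (0.0261), without a filter (0.0363), with DESeq2 (0.0386) and with the length trend removed (0.00112). RPSA, the laminin-binding protein of the small subunit, had 983, 950.4 and 945 CPM against 823, 761 and 851 CPM and fell by 0.25 ± 0.06 (SE) on the log2 scale (adjusted p = 2.66e-04), and did not pass with library size alone (adjusted p = 0.25). RPL13A and RPS18 serve widely as reference genes in qPCR. RPL13A had 2132, 2026 and 2098 CPM with DMSO and 1949, 1738 and 1967 CPM with SCH772984 and fell by 0.15 ± 0.06 (SE) on the log2 scale (adjusted p = 0.0224), but it was at 0.02 and uncalled with library size alone. The call was also lost without DMSO replicate 1 (adjusted p = 0.0529) or SCH772984 replicate 2 (0.146), in 1 fit of all 9 libraries (0.0985), with protein-coding genes only (0.102) and with at least 10 counts in every library (0.274). RPS18 had 1243, 1217 and 1216 CPM against 1102, 1089 and 1201 CPM, a log2 fold change of -0.12 ± 0.06 (SE, adjusted p = 0.0605), and was at 0.05 with library size alone. It was called lower without SCH772984 replicate 3 (adjusted p = 0.00404), without a filter (0.0251), with DESeq2 (0.0305), and with the trend of length (7.64e-05) or of length and GC (0.00468) removed. RPL8, the highest core gene per length, had 2133, 2151 and 2078 CPM against 1629, 1533 and 1787 CPM and fell by 0.37 ± 0.06 (SE) on the log2 scale (adjusted p = 7.05e-07).

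The 3 core genes called higher with SCH772984 changed little. RPL22, a tunnel-rim protein that also acts outside the ribosome in splicing, had 146, 148 and 149 CPM with DMSO and 174, 172 and 158 CPM with SCH772984. It rose by 0.18 ± 0.06 (SE) on the log2 scale (adjusted p = 0.0121), without overlap. RPS12, a small-subunit head protein, had 489, 521 and 502 CPM against 532, 573 and 602 CPM and rose by 0.17 ± 0.06 (adjusted p = 0.011), without overlap. RPLP1 had 716, 679 and 656 CPM against 701, 706 and 881 CPM, which overlapped, and rose by 0.15 ± 0.07 (adjusted p = 0.0489). Each of these calls was lost without some library. Without DMSO replicate 1, 2 or 3 or SCH772984 replicate 1, RPL22 had an adjusted p of 0.0826, 0.0741, 0.0511 and 0.0687, and with the counts of its pseudogenes added it was at 0.11 (adjusted p = 0.136). RPS12 did not pass without DMSO replicate 1 (adjusted p = 0.116) or DMSO replicate 3 (0.0651), and with the length trend removed it was at -0.02. RPLP1 did not pass without any 1 of the DMSO libraries (adjusted p = 0.067, 0.162 and 0.244) and was at 0.03 without SCH772984 replicate 3 (adjusted p = 0.63). Accordingly, 0, 1 and 0 core genes were called higher without DMSO replicate 1, 2 or 3.

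**Figure D2:**
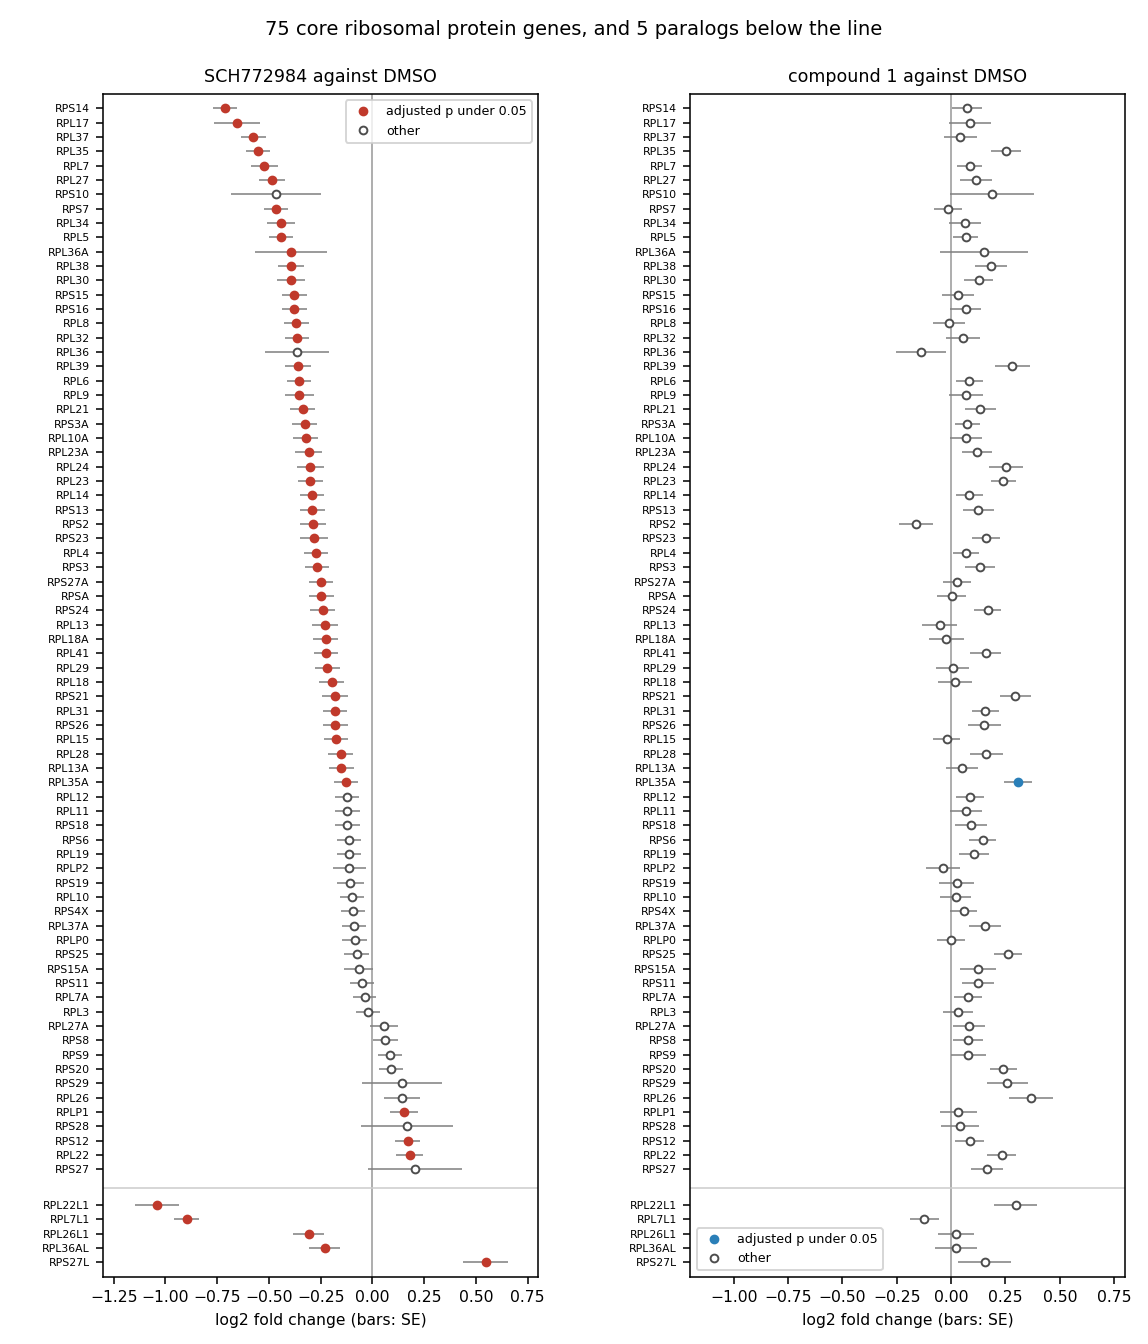
Log2 fold changes against DMSO of 75 of the 77 core genes, in 1 order in both panels, and of the 5 tested paralogs below the line, for SCH772984 (left) and compound 1 (right), each point with its SE (3 libraries per group) and filled where the adjusted p was under 0.05. With SCH772984 the core genes shown run from -0.71 to 0.21, and with compound 1 only RPL35A is filled.

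With SCH772984 the paralogs moved in both directions. Of the 5 tested, 4 fell and 1 rose, beside the 35.5% lower and 37.2% higher of all genes, and the median was -0.31. RPL22L1 (chr3:170864875-170870483), the paralog of RPL22, had 32.5, 38.5 and 37.7 CPM with DMSO, 46.5, 45.3 and 41.4 CPM with compound 1 and 17.3, 16.8 and 18.7 CPM with SCH772984. It fell by 1.04 ± 0.11 (SE) on the log2 scale (adjusted p = 6.68e-12), with no overlap, while its parent RPL22 was called higher. RPL7L1 (chr6:42879618-42889925), a paralog of RPL7 that takes part in ribosome assembly, had 382, 391 and 373 CPM with DMSO and 216, 206 and 196 CPM with SCH772984. It fell by 0.90 ± 0.06 (SE) on the log2 scale (adjusted p = 1.57e-17), and its parent RPL7, at 972, 949 and 964 CPM against 749.7, 667 and 601 CPM, fell by 0.52 ± 0.06 (SE) on the log2 scale (adjusted p = 1.26e-09).

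RPL26L1 (chr5:172958729-172969771) had 77.4, 72.1 and 76.6 CPM with DMSO and 63.7, 57.03 and 62.4 CPM with SCH772984 and fell by 0.31 ± 0.08 (SE) on the log2 scale (adjusted p = 3.83e-04). Its parent RPL26, which also binds the p53 mRNA, had 47.1, 57.4 and 59.6 CPM against 54.5, 61.9 and 65.1 CPM and did not pass, with a log2 fold change of 0.14 ± 0.09 (SE, adjusted p = 0.134). RPL36AL (chr14:49618519-49620685) had 82.4, 88.6 and 73.5 CPM with DMSO and 71.03, 70.9 and 67.3 CPM with SCH772984 and fell by 0.23 ± 0.08 (SE) on the log2 scale (adjusted p = 0.0064). Its parent RPL36A, at 7.78, 10.5 and 10.9 CPM against 7.55, 8.34 and 6.43 CPM, fell by 0.39 ± 0.17 (SE) on the log2 scale (adjusted p = 0.04), although the groups overlapped and the call was lost without DMSO replicate 2 (adjusted p = 0.108), DMSO replicate 3 (0.142) or SCH772984 replicate 3 (0.15). With library size alone neither RPL26L1 (adjusted p = 0.107) nor RPL36AL (0.503) nor RPL36A (0.256) passed, and RPL36AL did not pass without DMSO replicate 2 (0.0598).

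RPS27L (chr15:63125872-63158021), a p53 target that binds MDM2, was the paralog that rose. It had 23.5, 19.2 and 20.3 CPM with DMSO, 20.6, 24.6 and 24.8 CPM with compound 1 and 32.3, 32.01 and 28.4 CPM with SCH772984, and rose by 0.55 ± 0.11 (SE) on the log2 scale (adjusted p = 1.87e-05). All SCH772984 libraries lay above all DMSO libraries, and the call held under all 17 alternatives. Its parent RPS27 had 285, 256 and 267 CPM with DMSO and 241, 285 and 409 CPM with SCH772984, a log2 fold change of 0.21 ± 0.23 (SE, adjusted p = 0.465). The SCH772984 libraries of RPS27 differed widely, and without replicate 3 the fold change was -0.05 (adjusted p = 0.506). RPS27L overlaps LACTB, and without a stated strand setting the reads of the pair cannot be told apart.

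RPS19BP1, matched by name only, had the largest fold change with SCH772984 among the tested genes that the name rule gave. It had 48.3, 44.2 and 41.6 CPM with DMSO, 48.2, 33.03 and 42.4 CPM with compound 1 and 10.3, 12.1 and 11.6 CPM with SCH772984, and fell by 1.98 ± 0.11 (SE) on the log2 scale (adjusted p = 1.22e-20).

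**Figure D3:**
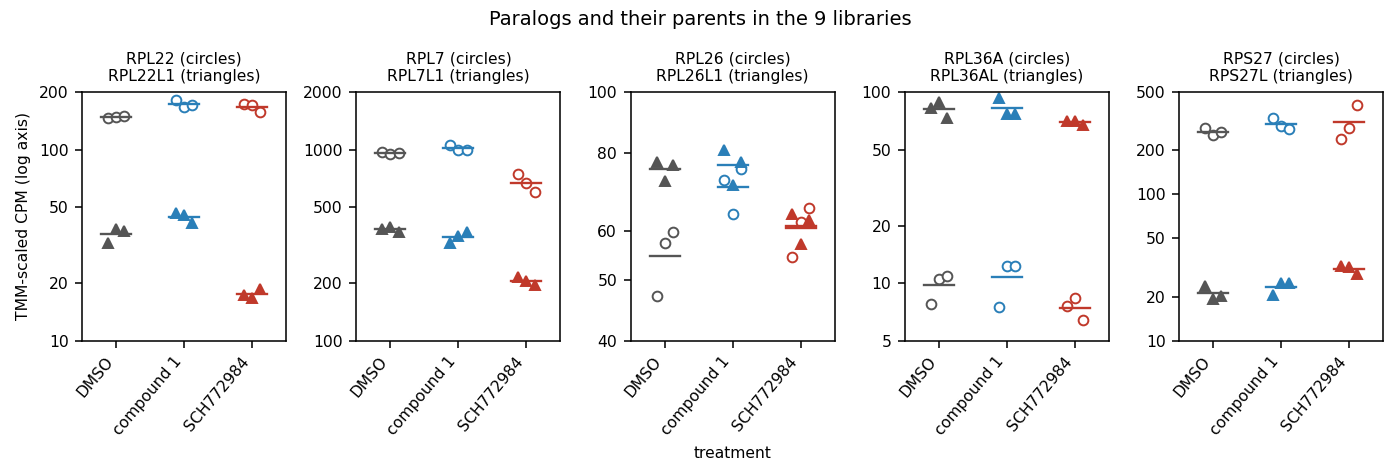
TMM-scaled CPM (log axes, with a range of its own in each panel) of 5 parent genes (open circles) and their paralogs (filled triangles) in each library, with lines at the group means of 3 libraries. RPL22L1 falls with SCH772984 while RPL22 does not, RPL7 and RPL7L1 fall together, and RPS27L is above DMSO in all 3 SCH772984 libraries.

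To compare paralog and parent within a library, counts were divided by gene length, and the share of the paralog in the pair was calculated. With DMSO, RPL22L1 made up 32.98% ± 1.81 (SD, n = 3) of its pair, and with SCH772984 17.4% ± 1.54, with no overlap. The share of RPL7L1 went from 12.9% ± 0.378 to 10.3% ± 0.583, and that of RPL26L1 from 74.8% ± 2.75 to 68.5% ± 2.71, also with no overlap. These 3 pairs had p = 0.1 in a two-sided exact permutation test, which is the smallest p that 3 against 3 libraries can give, and an adjusted p of 0.2 over the 10 tests (5 pairs and both inhibitors). The share of RPL36AL was 97.8% ± 0.488 with DMSO and 98.04% ± 0.199 with SCH772984 (exact p = 0.6), and that of RPS27L was 0.875% ± 0.0469 and 1.18% ± 0.364 (exact p = 0.4). With compound 1, RPL22L1 held 33.99% ± 1.32 of its pair (exact p = 0.6), RPL7L1 11.4% ± 0.921 and RPL26L1 70.1% ± 1.01 (exact p = 0.1 each, adjusted p = 0.2). Shares depend on the annotated gene lengths and on how reads of the parents were assigned. Pseudogenes held 18.5% of the counts on RPL26 and its pseudogenes together, and RPL36A overlaps a readthrough gene on the same strand. The high shares of RPL26L1 and RPL36AL therefore need not mean more RNA than the parent has. Levels within a pair are less certain than differences between conditions.

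Among proteins of the cytosolic ribosome outside the name rule, FAU, whose ribosomal protein is made as a fusion with a ubiquitin-like protein, and RACK1, a scaffold on the small subunit, both fell with SCH772984. RACK1 had 2255, 2234 and 2106 CPM with DMSO and 1624, 1515 and 1515 CPM with SCH772984 and fell by 0.51 ± 0.06 (SE) on the log2 scale (adjusted p = 2.16e-10). FAU fell by 0.35 ± 0.07 (SE) on the log2 scale. RPS27A, a core gene that encodes a ubiquitin fusion, had 643, 686 and 649.7 CPM against 534, 564 and 573 CPM and fell by 0.25 ± 0.06 (SE) on the log2 scale (adjusted p = 2.08e-04), a call lost with library size alone (adjusted p = 0.227).

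Genes that assemble or regulate ribosomes also fell, with lower medians than the core genes, and their counts stand beside 35.5% of all genes lower and 37.2% higher. Of 18 tested TOP RNAs, mostly of translation factors and with 2 snoRNA host genes in the list, 13 fell and 0 rose (median -0.40), and the 3 with the smallest adjusted p were the nucleolar chaperone NPM1 at -0.92 ± 0.06 (SE), the noncoding snoRNA host SNHG1 at -1.03 ± 0.08 and EIF3K at -0.86 ± 0.07. Of 15 dedicated chaperones and assembly factors of ribosomal proteins, 14 fell and 1 rose (median -0.87). Among these, GRWD1, which binds RPL3, had 161, 156 and 144 CPM with DMSO and 56.5, 47.1 and 48.4 CPM with SCH772984, RRS1, which loads RPL5 and RPL11, had 44.2, 45.8 and 40.7 against 10.1, 10.7 and 11.1, and its partner RPF2 had 130.4, 130.0 and 117 against 51.4, 50.8 and 41.7.

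Beside the same 35.5% lower and 37.2% higher of all genes, 9 of 14 tested S6 kinases and TOP regulators fell and 2 rose (median -0.57). EIF4EBP1, the translation repressor that mTOR phosphorylates, fell by 1.90 ± 0.09 (SE) on the log2 scale (adjusted p = 5.52e-23), RPS6KA4, the kinase MSK2, by 1.25 ± 0.07 and EIF4EBP2 by 0.75 ± 0.07. Of 101 ribosome biogenesis factors, 97 fell and 1 rose (median -1.13). TCOF1, a factor of rRNA transcription, had 569, 596 and 553 CPM with DMSO and 131, 122 and 118 CPM with SCH772984, and EBNA1BP2 and DKC1 fell by 2.18 ± 0.07 and 1.96 ± 0.07 (SE). Of 77 tested mitochondrial ribosomal proteins, 64 fell and 3 rose (median -0.53). Whether these lists differ from the core genes was not tested.

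**Figure D4:**
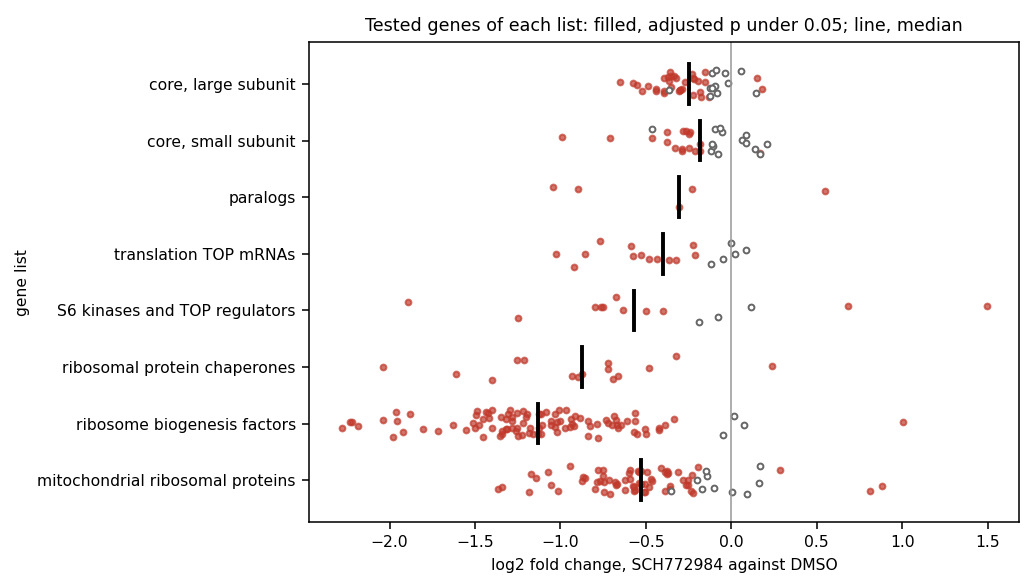
Log2 fold change with SCH772984 against DMSO (x axis) of the tested genes of each list (rows), filled where the adjusted p was under 0.05, with a line at each list's median. The medians run from -0.18 for core small-subunit genes to -1.13 for ribosome biogenesis factors.

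Features of the core genes that the name rule did not use were set beside the changes with SCH772984. The 46 core genes with a TOP-like tract had a median of -0.19 (26 lower, 3 higher), and the 16 with a promoter entry but no tract -0.30 (11 lower, 0 higher). These groups were set by the exact annotated start. RPL15, RPL17, RPL19 and RPL27, in the group without a tract, hold the letters CTTTCC close to a listed start. The 28 core genes that hold the 60 snoRNAs of this family in their introns had a median of -0.26 (18 lower, 1 higher), and the other 49 genes -0.21 (30 lower, 2 higher). Across the 77 core genes, the log2 fold change had a Pearson r of -0.086 and a Spearman rho of -0.057 with log coding length, over points that share the same 6 libraries. Beside these counts, 62.3% of all core genes and 35.5% of all genes were lower, and 37.2% of all genes were higher. These are descriptions of the measured genes, and none of these differences was tested.

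The question for compound 1 was whether inhibition of TBK1 and IKKε changed these genes. Against DMSO, 0 core genes fell and 1 rose, RPL35A, beside 0.374% of all 12849 genes lower and 0.49% higher. At an unadjusted p under 0.05, 0 core genes were lower and 19 higher, beside 7.69% and 7.35% of all genes, and 68 of 77 log2 fold changes were above 0, with a median of 0.08. Replicate 1 stood highest. Relative to the DMSO mean, the median over core genes was 0.23 in compound 1 replicate 1, -0.01 in replicate 2 and 0.05 in replicate 3. Without replicate 1, the median was 0.03, and 3 core genes were lower and 10 higher after adjustment, beside 6.1% and 3.46% of all genes. The 3 lower genes, named for their low number, were RPL36, RPS2 and RPL13, at -0.31 ± 0.07, -0.27 ± 0.05 and -0.17 ± 0.05 (SE), and RPL35A and RPL26 had the highest values among the 10, at 0.25 ± 0.05 and 0.35 ± 0.09. The number of core genes called higher was 0 without DMSO replicate 1, DMSO replicate 2, DMSO replicate 3 or compound 1 replicate 3, and 1 without compound 1 replicate 2.

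RPL35A, a large-subunit protein mutated in Diamond-Blackfan anemia, had 656, 638 and 672 CPM with DMSO and 873, 759 and 795 CPM with compound 1. It rose by 0.31 ± 0.06 (SE) on the log2 scale (adjusted p = 0.0383), and all compound 1 libraries lay above all DMSO libraries. Its call was lost without DMSO replicate 1, 2 or 3 (adjusted p = 0.207, 0.314 and 0.165) or compound 1 replicate 3 (0.121). RPL23, a large-subunit protein that binds MDM2, had 783, 790.3 and 797 CPM against 945, 908 and 940.3 CPM, a log2 fold change of 0.24 ± 0.06 (SE, adjusted p = 0.0652). RPS21, of the small subunit, had 418, 403 and 429.7 CPM against 568, 493 and 472 CPM, a log2 fold change of 0.29 ± 0.07 (SE, adjusted p = 0.0664). In both genes the groups did not overlap, and both passed without compound 1 replicate 1 (adjusted p = 7.93e-04 and 0.00353), with library size alone (0.0331 and 0.0409), without a filter (0.0425 and 0.00835), with DESeq2 (0.0284 and 0.0333) and with length and GC trends removed (0.0149 and 0.0108). RPS6 had 875, 791 and 816 CPM with compound 1, above all DMSO libraries, with a log2 fold change of 0.14 ± 0.06 (SE, adjusted p = 0.274).

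None of the 5 tested paralogs was called with compound 1, and RPL22L1 alone passed at an unadjusted p. RPL22L1 lay above DMSO in all 3 compound 1 libraries, with a log2 fold change of 0.30 ± 0.10 (SE, adjusted p = 0.164), and its parent RPL22, also above DMSO in all 3, had a log2 fold change of 0.23 ± 0.07 (SE, adjusted p = 0.114). RPL22 was called higher without compound 1 replicate 1, at 0.20 (adjusted p = 0.021), and with length and GC trends removed (0.0448). RPL7L1 lay below DMSO in all 3, at 326, 354 and 370.3 CPM, with a log2 fold change of -0.12 ± 0.07 (SE, adjusted p = 0.41). RPL26L1, RPL36AL and RPS27L had 95% intervals of -0.14 to 0.18, -0.16 to 0.21 and -0.09 to 0.40 on the log2 scale. Of the companion lists, 0 of 18 TOP RNAs, 0 of 15 chaperones, 0 of 14 S6 kinases and TOP regulators were called, and neither FAU nor RACK1 was. Of 101 ribosome biogenesis factors 1 was called, TCOF1, at -0.30 ± 0.06 (SE, adjusted p = 0.0376), beside 0.374% of all genes lower, and 20 were lower and 0 higher at an unadjusted p, beside 7.69% and 7.35%. Of 77 mitochondrial ribosomal proteins, 0 were lower and 1 higher, beside 0.49% of all genes higher.

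With compound 1, short core genes stood higher than long ones. The 25 core genes with under 400 nt of coding sequence had a median log2 fold change of 0.16 and the other 52 genes 0.07, and across the 77 genes the Pearson r with log coding length was -0.447 and Spearman's rho -0.487, over points that share the same 6 libraries. By library, the medians of the short and long core genes relative to DMSO were 0.30 and 0.21 in compound 1 replicate 1, 0.10 and -0.05 in replicate 2, and 0.10 and 0.04 in replicate 3. The same order was seen in SCH772984 replicate 2 (-0.18 and -0.31) and replicate 3 (-0.10 and -0.18), but not in replicate 1 (-0.23 and -0.22), and the DMSO libraries had 0.05 and 0.02, -0.04 and 0.01, and -0.01 and -0.03. The order was thus not seen with compound 1 alone, and no difference between treatments was tested. Across the same genes the fold change also had a Pearson r of -0.358 and a Spearman rho of -0.457 with log2 CPM.

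**Figure D5:**
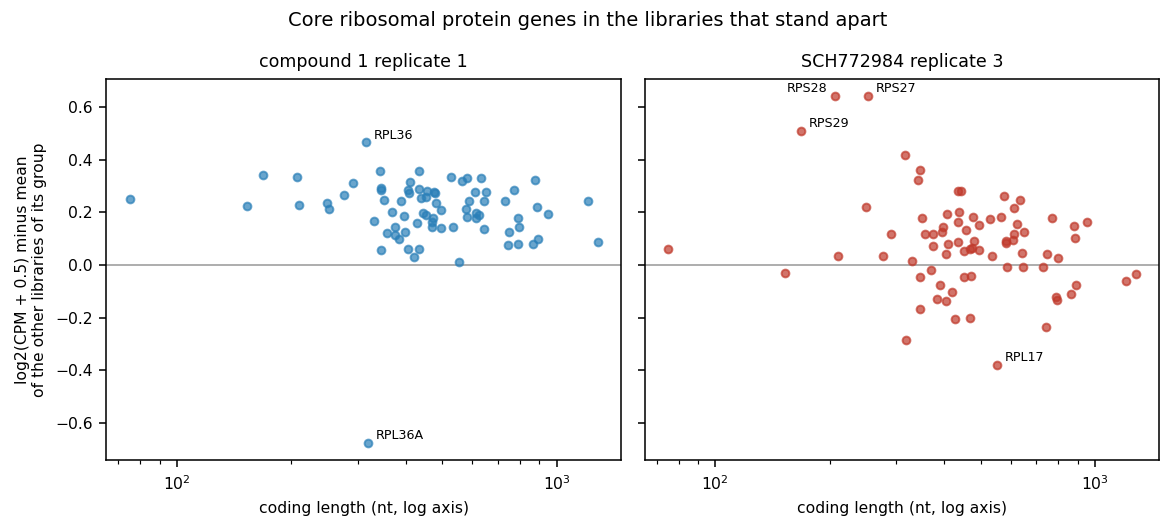
Deviation of compound 1 replicate 1 (left) and SCH772984 replicate 3 (right) from the mean of the other 2 libraries of the group, as log2(CPM + 0.5), against coding length (nt, log axis), with 1 point for each of the 77 core genes. Compound 1 replicate 1 is above 0 for most genes, with RPL36A lowest at -0.68, and in SCH772984 replicate 3 the short genes RPS27 (0.64), RPS28 and RPS29 are highest and RPL17 (-0.38) is lowest.

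The libraries that stood apart did so in different ways. In compound 1 replicate 1, core genes deviated from the other 2 libraries by a median of 0.21 on the log2 scale, from -0.68 for RPL36A to 0.47 for RPL36. In SCH772984 replicate 3, the median deviation was 0.08, from -0.38 for RPL17 to 0.64 for RPS27. RPS28, which lines the mRNA exit, had 211, 218 and 335 CPM in the SCH772984 libraries against 238, 232 and 209 CPM with DMSO, and RPS29, a small zinc-binding protein of the small-subunit head, had 170.3, 197 and 261 CPM against 209, 169 and 189.8 CPM. Neither passed, with log2 fold changes of 0.17 ± 0.22 and 0.14 ± 0.19 (SE), and without replicate 3 they were at -0.09 and -0.06. The cause of the deviation was not tested.

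SCH772984 was also compared with compound 1 directly, both at 1 μM for 24-h. In this fit 49 core genes were lower with SCH772984 and 0 higher, beside 32.6% and 33.7% of all 13863 genes, with a median of -0.32. Without compound 1 replicate 1, 44 were lower and 1 higher, and the median was -0.23. With library size alone, 37 were lower and 2 higher, with a median of -0.19. The shares of all genes called in these alternative fits are not given here. Of the paralogs, RPL22L1 was lower with SCH772984 by 1.33 ± 0.11 (SE) on the log2 scale, RPL7L1 by 0.77 ± 0.08, RPL26L1 by 0.32 ± 0.09 and RPL36AL by 0.24 ± 0.10, and RPS27L was higher by 0.40 ± 0.12. RPL36AL was not called without compound 1 replicate 1 (adjusted p = 0.143) or without SCH772984 replicate 1 (0.0589), 2 (0.0739) or 3 (0.107), and RPS27L not with the length trend removed (0.124). With library size alone neither RPL26L1 (adjusted p = 0.084) nor RPL36AL (0.328) was called, and RPL36AL was not with at least 10 counts in every library (0.131) or with length and GC trends removed (0.109). RPL22, RPS12 and RPLP1, the core genes that rose with SCH772984 against DMSO, did not differ beyond the error between the inhibitors, with 95% intervals of -0.21 to 0.12, -0.07 to 0.25 and -0.07 to 0.33.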

How the data were processed

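The deposited table holds whole-number read counts per gene for the 9 libraries, with the position, length and biotype of each gene. Per the submitters' processing notes, reads were aligned to hg38 with HISAT2 2.0.5 and counted by the authors with featureCounts 1.5.0-p3, and the settings for strand and multi-mapped reads are not given in the sources used here. Every sample column was mapped to a sample by its label. Library totals of 9464432 to 13887859 counts set the precision, and floors cover counting error only. All genes were fitted with edgeR 4.0.16 in R 4.3.3 (quasi-likelihood test, robust, TMM factors), for each comparison on its 6 libraries, after genes with low counts were removed (filterByExpr, minimum count 10 and minimum total 15). The comparisons with DMSO share the DMSO libraries. The procedure was tested on simulated data. Genes were called at a Benjamini-Hochberg adjusted p under 0.05 over all genes tested, and an SE is the log2 fold change divided by the square root of the F statistic. Intervals of 95% use the normal distribution. Values per library are CPM with TMM factors, or log2(CPM + 0.5) where differences between libraries are given. Shares of paralogs used an exact permutation test (scipy 1.17.1). Alternatives were RLE factors, library size alone, other filters, protein-coding genes only, 1 fit of all libraries, DESeq2 1.42.0, a replicate block, trends with length and GC content removed (splines, 5 df), pseudogene counts added, other thresholds, and each library left out.

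Genes were named by a rule: paralogs with a count and their parents, the 5 largest called rises and falls (with fewer than 3 calls, the 3 smallest unadjusted p-values), RPS6, the stalk proteins, RPL5, RPL11, RPSA and 2 reference genes, the 3 highest and 3 lowest per length, core genes called against the majority, FAU and RACK1, and the 3 genes with the smallest adjusted p in each companion list. The other core genes were named after their values were seen. Members, rule and lists were chosen with earlier results of these data known. Some items that the rule names are not reported here.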

Additional observations from a re-analysis of the deposited data

How the results depend on the processing

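The falls of core genes with SCH772984 against DMSO kept a negative median under every alternative tried, but their number depended on the scaling. Library size alone gave 23 lower and 11 higher with a median of -0.0512. Counts of calls under alternatives, here and above, stand without the share of all genes called unless that share is printed. They therefore do not say whether core genes changed more often than other genes. The number called higher was 0 without a filter, 7 with at least 10 counts in every library (median -0.15), 6 with protein-coding genes only and 0 with the length trend removed (median -0.36), and the median was -0.30 with length and GC trends removed. A 1.5-fold minimum left 3 lower and 0 higher, and 2 paralogs lower and 0 higher, and with library size alone 2 paralogs were lower. For compound 1 against DMSO, core genes called higher numbered 5 with library size alone, 8 without a filter, 4 with DESeq2, 2 with the length trend removed, 6 (and 1 lower) with length and GC trends removed, 19 at an unadjusted p (with 1 paralog) and 0 with a 1.5-fold minimum. For SCH772984 against compound 1, 2 core genes were higher with library size alone (median -0.19, 2 paralogs lower), the median was -0.25 with at least 10 counts and -0.43 with the length trend removed (0 paralogs higher), and a 1.5-fold minimum left 9 core genes and 2 paralogs lower and 0 paralogs higher.

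With each library left out, 45 to 57 core genes were lower and 0 to 3 higher with SCH772984 against DMSO, 0 to 3 lower and 0 to 10 higher with compound 1 (median 0.03 to 0.13), and 43 to 56 lower and 0 to 1 higher with SCH772984 against compound 1 (median -0.37 to -0.23). The difference in share, in percentage points, was -0.0175 to 1.69 for RPL22L1 with compound 1, -0.0041 to 0.483 and -0.708 to 0.0127 for RPL36AL with SCH772984 and compound 1, and -0.0554 to 0.0938 for RPS27L with compound 1.

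The correlations of deviations between libraries of the same replicate number ran from -0.0843 to 0.137, and those of other numbers from -0.128 to 0.185. The main fits did not pair the samples. Whether the samples were handled in pairs is not given by the labels, and such correlations cannot decide it. With the replicate number as a block, 10 core genes were called higher with compound 1, RPL23 (adjusted p = 0.0328) and RPS21 (0.0161) among them. The share of all genes called in that fit is not given here, so this count was not set against it. Some uncalled or weakly called log2 fold changes turned direction, and the cause was not tested. With SCH772984 and library size alone, RPL11 was at 0.0525, RPL13A at 0.023, RPL19 at 0.062, RPL3 at 0.154, RPLP0 at 0.0886, RPLP2 at 0.0626, RPS18 at 0.0535 and RPS6 at 0.0602. RPL3 was at 0.0592 with at least 10 counts, 0.0279 with protein-coding genes only, 0.0022 with pseudogene counts and between -0.0836 and 0.0027 when a library was left out. RPS12 was at -0.0162 and RPS29 at -0.0542 with the length trend removed, and RPS28 at -0.118 with length and GC trends removed. With a library left out, RPS27 ranged from -0.0464 to 0.348, RPS28 from -0.0892 to 0.271 and RPS29 from -0.0563 to 0.256, lowest without SCH772984 replicate 3 and highest without replicate 1. With compound 1, RPL26L1 was at -0.0415 and RPL36AL at -0.0527 with the length trend removed, and at -0.06 and -0.0855 with length and GC trends removed, where RPL7 was at -0.0054. When a library was left out, RPL26L1 ranged from -0.0174 to 0.0647 and RPL36AL from -0.0754 to 0.0825.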

Other observations

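Pseudogenes named after ribosomal proteins had summed levels of 2281 to 2356 CPM with DMSO, 2332 to 2689 CPM with compound 1 and 2139 to 2399 CPM with SCH772984. Those of RPL9 had 400.5, 377 and 418 CPM with DMSO and 328, 338 and 333 CPM with SCH772984.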
